A study of Homo sapiens with 4 samples.

Results

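T24T, a human bladder cancer cell line known as a more aggressive derivative of T24, was transfected with the circular RNA hsa_circ_0008399 (circ) or with a vector (vector), and 1 RNA sequencing library was made from each. The comparison of these 2 libraries is described here. A gene belonged to it when the library with the higher value held 50 or more counts, which 13327 of the 56303 genes in the count table did. At this edge, 46 genes had exactly 50 counts in the higher library, 9 of them called by the rule given below, and 36 genes with 49 counts stayed outside. The study treated the bladder cancer line EJ in the same way, which gave 4 libraries in all, and its stated purpose was to find genes downstream of the circular RNA. The labels name no other agent in either T24T group, and the sources used here do not give the transfection reagent, the construct, the time after transfection or the number of cultures behind a library. The tables spell the line T24.

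Circular RNAs are closed loops made by back-splicing, which joins the end of an exon to the start of an earlier one. Some bind proteins or microRNAs. The tables give 1 value per gene, so the loop has no value of its own. Reads from it would fall to the gene that shares its exons, which the labels do not name.

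Each count was divided by the total of its library, and the ratio of circ over vector carries an exact 95% binomial (Clopper-Pearson) interval, which covers counting error only. A gene was called higher or lower when the ratio was at least 1.5-fold and the interval excluded 1. With 1 library a side no difference has a replicate check or a p-value, and the transfected sequence cannot be told apart from any other way in which these 2 libraries differed. In bulk RNA, fewer cells expressing a gene and less RNA per cell also cannot be told apart.

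The vector library held 16864247 counts and the circ library 18057768, with 25044 and 25032 genes detected, and the genes of the comparison held 99.4% of the counts in each. Epithelial keratins were abundant (KRT8, 13405 counts in vector and 14341 in circ; KRT18, 10220 and 10941), while the epithelial cadherin CDH1 had 3 and 1 counts. Of 11 luminal urothelial markers only ELF3 (432 and 534 counts) passed the minimum; the others had 48 counts or fewer, with UPK1B and UPK3A at 0 and GATA3 at 1 and 0. Of 9 basal markers, CD44 (13673 and 11781) and EGFR (4083 and 4100), which many other cell types also express, were abundant, and the remaining 7, keratins KRT5 and KRT14 among them, had 9 counts or fewer. Of 11 leukocyte markers, 6 were at 0 in both libraries and 10 were under the minimum, with the lysosomal gene CD68 the only one above it. Erythroid markers summed to 3 and 4 counts.

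In all, 482 genes were called higher in circ, 3.62% of the 13327, and 571 were called lower, 4.28%. Of the genes compared, 391 passed the minimum in circ only and 260 in vector only, which favours a call toward that library. Among the calls, 332 higher and 437 lower ones had 50 or more counts in both libraries. At 2-fold, 106 genes (0.795%) were higher and 72 (0.54%) lower. The median log2 ratio was -0.02, with the 5th percentile at -0.55 and the 95th at 0.52. The share called varied with the count: among the 1854 genes with 50 to 99 counts in the higher library, 8.74% were called higher and 9.33% lower, against 1.43% and 2.6% of the 4046 genes with at least 500 and under 2000 and 2.07% and 6.9% of the 290 genes with 10000 or more. Exon bases were shared with another gene of the comparison, on either strand, by 5767 genes (43.3%), 184 of them called higher and 259 lower, so their reads may belong in part to a neighbour. Such genes among those described below include RBM3, DDIT3, DDIT4, HILPDA, ANGPTL4, ANKRD37, HK2, SLC7A11, SLC1A5, CARS, GARS, YARS, MARS, IFIT2, ACAT2, TMEM97 and FOXM1.

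**Figure D1:**
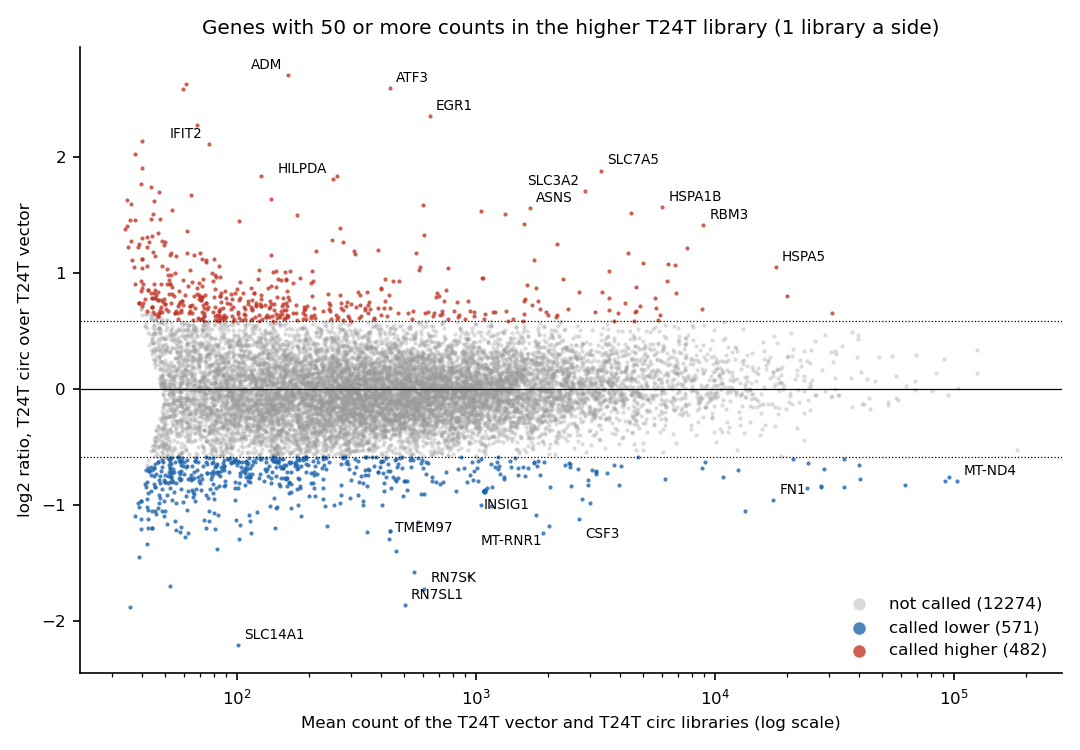
Log2 ratio of circ over vector in T24T (y axis) against the mean count of the 2 libraries (x axis, log scale), 1 point per gene; red points are called higher, blue called lower, grey not called, and dotted lines mark 1.5-fold. Most genes lie between the dotted lines, with ATF3, EGR1 and SLC7A5 high above and RN7SL1, RN7SK and the mitochondrial genes below.

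Work on this circular RNA has concerned RNA methylation at N6 of adenosine (m6A) and TNFAIP3. RBM3 (chrX:48574449-48579066, hg38), which encodes a cold-inducible RNA-binding protein, had 4641 counts in vector and 13240 in circ, a ratio of 2.66 (2.58 to 2.76). Reads of the transfected sequence and of the cell's own transcript cannot be told apart in such a count. TNFAIP3 (chr6:137867188-137883312), the gene of the NF-kB feedback inhibitor A20, had 1053 and 2443 counts, a ratio of 2.17 (2.01 to 2.33). The genes of the m6A writer complex stayed within 1.5-fold, with log2 ratios of -0.19 for WTAP, -0.39 for METTL3 and 0.13 for METTL14. No member of a list of 22 m6A writers, readers and erasers was called in either direction. Of all genes, 3.62% were called higher and 4.28% lower, so no call among 22 is near those shares.

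The genes farthest from equality were taken by the interval bound nearest to 1. Among the 15 taken on the higher side were stress transcription factors (ATF3, EGR1, DDIT3), the subunits of an amino acid exchanger (SLC7A5, SLC3A2), asparagine synthetase (ASNS), hypoxia-inducible genes (ADM, HILPDA) and inducible HSP70 (HSPA1A, HSPA1B, near-identical copies whose counts may mix). The other higher ones were the hormone gene AMH, the glycogen gene PPP1R3C, the histone gene HIST1H2BG, the embryonic myosin gene MYH3 and the interferon-induced IFIT2. Of the higher ones, ADM, AMH, PPP1R3C, HIST1H2BG and IFIT2 passed the minimum through circ alone. On the lower side stood structured noncoding RNAs (RN7SL1, RN7SL2, RN7SK), mitochondrial transcripts (MT-RNR1, MT-TL2, MT-TK, MT-TD), sterol-linked genes (INSIG1, TMEM97) and the cytokine gene CSF3. SLC14A1, which encodes a urea transporter, had the lowest ratio of them, with 164 counts in vector and 38 in circ. The integrin gene ITGA11, SDCBP2 and the pseudogenes HNRNPA1P54 and MTND1P23 were also among the lower 15. SLC14A1, SDCBP2 and HNRNPA1P54 passed the minimum through vector alone.

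**Figure D2:**
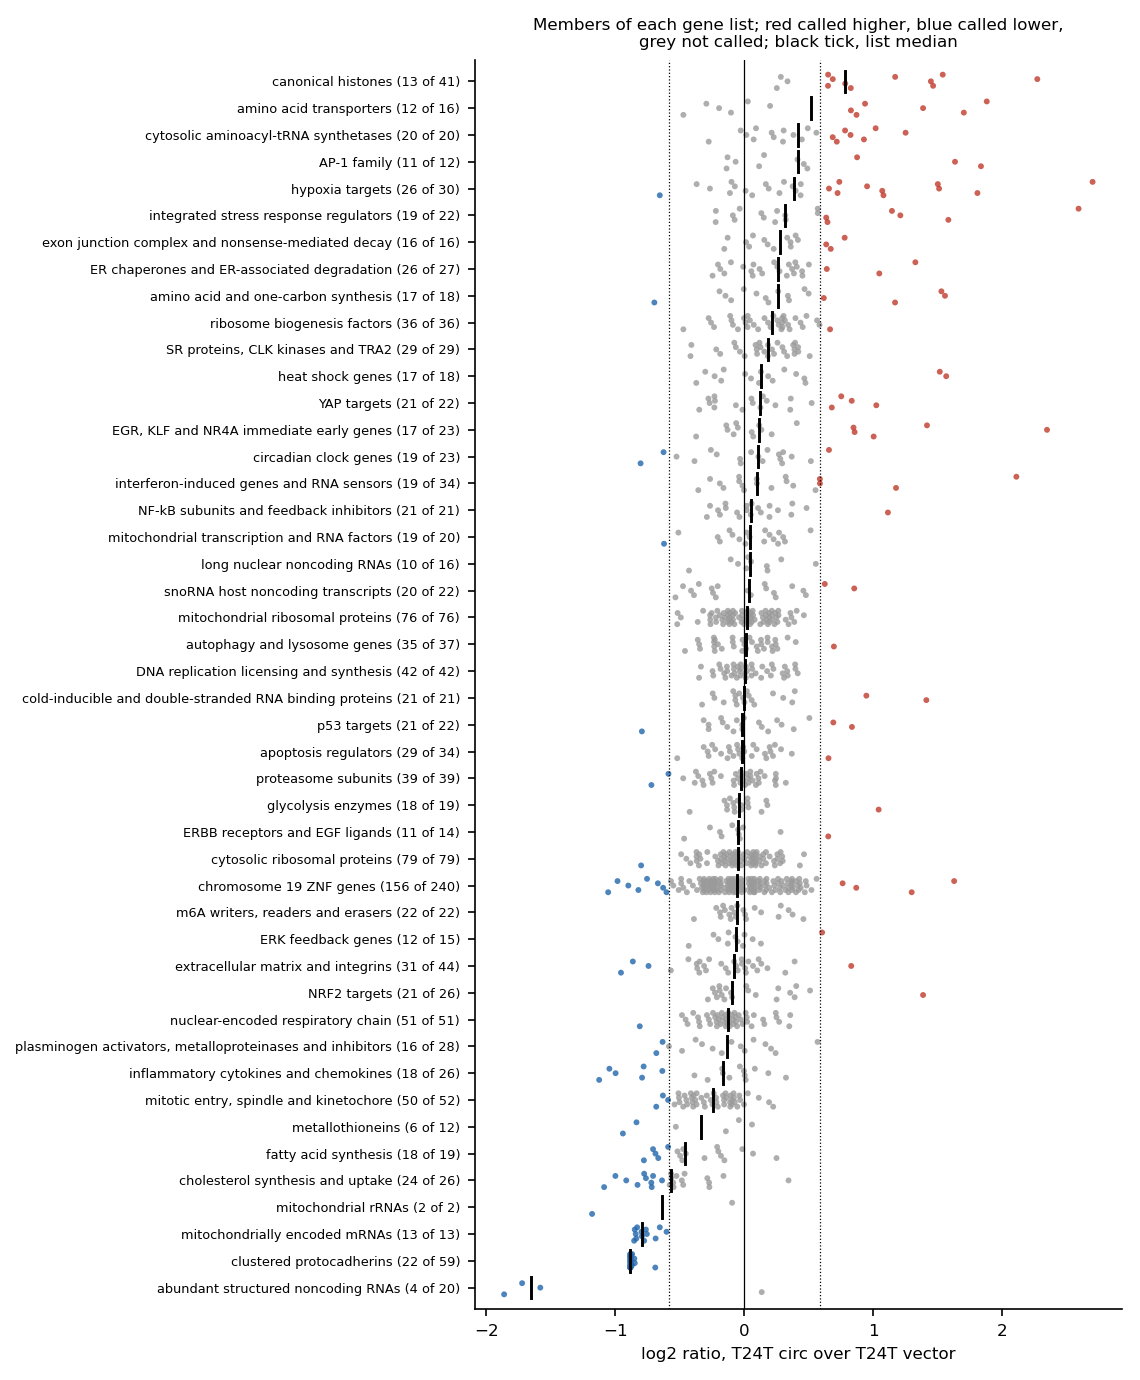
Log2 ratio of circ over vector in T24T (x axis) for the members of each of 46 gene lists that passed the 50-count minimum (numbers in brackets: members shown of members listed), ordered by the list median (black tick); red called higher, blue called lower, grey not called. Amino acid transporters, tRNA synthetases, hypoxia targets and stress regulators lie to the right, and sterol, fatty acid and mitochondrially encoded genes to the left.

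Amino acid supply genes held some of the highest ratios in T24T. In the integrated stress response, kinases that sense amino acid shortage, misfolded protein, double-stranded RNA or heme loss phosphorylate eIF2α, which lowers general translation and favours translation of the transcription factor ATF4. ATF4 and its partners, such as CHOP (the product of DDIT3), raise genes for amino acid import, amino acid synthesis and tRNA charging. Of 12 amino acid transporter genes past the minimum, out of 16 listed, 6 were called higher and 0 lower (all genes, 3.62% and 4.28%). The list's median log2 ratio was 0.51 against -0.02 over all genes. SLC7A5 (chr16:87830023-87869488), the light chain of the exchanger that imports leucine and other large neutral amino acids, had 1345 counts in vector and 5310 in circ, 3.69-fold (3.47 to 3.92) higher. Its heavy chain SLC3A2 had 1272 and 4439 counts, 3.26-fold (3.06 to 3.47) higher. The cystine importer SLC7A11, which also pairs with SLC3A2, had 142 and 398 counts, a ratio of 2.62 (2.16 to 3.19). A further partner of SLC3A2, SLC7A6, had 721 and 719 counts, a log2 ratio of -0.10 and no call. The glutamine importer SLC1A5 (1200 and 2351 counts), the neutral amino acid carrier SLC1A4 (39 and 80) and the glycine carrier SLC6A9 (81 and 154) were called higher by 1.83-fold, 1.92-fold and 1.78-fold. SLC1A4 passed the minimum through circ alone. SLC38A2, another ATF4-linked transporter gene, went the other way without a call, with 4463 and 3445 counts and a log2 ratio of -0.47. The 4 listed members under the minimum, SLC7A2, SLC1A1, SLC1A3 and SLC43A1, had between 5 and 23 counts.

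Among 17 measured genes of amino acid and folate-cycle synthesis, 4 were called higher and 1 lower (all genes, 3.62% and 4.28%). Their median log2 ratio was 0.26. ASNS, which makes asparagine, had 808 counts in vector and 2548 in circ, 2.94-fold (2.72 to 3.19) higher. Serine synthesis starts with PHGDH, which had 2544 and 6133 counts (2.25-fold, 2.15 to 2.36), and continues with PSAT1, which had 514 and 1590 (2.89-fold, 2.61 to 3.2). PSPH, the last step of that branch, had 171 and 233 counts and a log2 ratio of 0.35, without a call. The first gene of the transsulfuration branch, CBS, was called higher at 1.53-fold, while the next, CTH, was called lower on few counts (53 and 35, interval of the vector-over-circ ratio 1.04 to 2.56). CTH passed the minimum through vector alone. The mitochondrial folate enzymes MTHFD2 and SHMT2 had log2 ratios of 0.50 and 0.17, without calls, and ALDH1L2 was under the minimum with 7 and 13 counts.

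The response element that CHOP and ATF proteins are known to bind in such genes has the letters TGATGNAAN. The ASNS site is shown because this gene had the highest ratio of the synthesis list and is the textbook case of the element. It lies 79 to 50 bases before a RefSeq start on the minus strand, at chr7:97872458-97872487 (GRCh38.p14), inside the span of the gene in the count table (chr7:97852118-97872542). Capitals mark the match.
ASNS: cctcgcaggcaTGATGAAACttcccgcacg
On both strands and over all listed starts, with windows from 250 bases before to 50 bases after the start, the genes called higher that had a promoter entry held a match in 1 of 4 of the synthesis list (ASNS), 3 of 5 of the transporters (SLC3A2, SLC1A4, SLC1A5), 2 of 5 of the stress response regulators (ATF3, CEBPG) and 1 of 3 of the endoplasmic reticulum list (HERPUD1). The letters were not found for PSAT1, PHGDH, SLC7A5, DDIT3, PPP1R15A or HSPA5. Of 35116 such RefSeq windows in the whole table, 3.61% hold a match, and 4.45% of genes hold it at 1 or more of their starts. A match is a description of the letters and not of binding, and no promoter entry was found for the 7 tRNA synthetase genes called higher.

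Cytosolic tRNA synthetases, which charge each tRNA with its amino acid, were all 20 past the minimum. Of these, 7 were called higher and 0 lower (all genes, 3.62% and 4.28%). A ratio above 1 was seen for 18, and the median log2 ratio was 0.41. CARS (cysteine) had 1228 counts in vector and 3133 in circ, a ratio of 2.38 (2.23 to 2.55). GARS (glycine) had 2265 and 4919 counts, and AARS (alanine) 4129 and 8419, with ratios of 2.03 and 1.9. SARS (serine), YARS (tyrosine), NARS (asparagine) and MARS (methionine) followed at 1.77-fold, 1.72-fold, 1.65-fold and 1.61-fold. TARS (threonine) stood just under the fold needed, at 1.47 (1.41 to 1.55). The members below 1 were QARS (glutamine), with 4477 and 3961 counts and a log2 ratio of -0.28, and RARS (arginine), at -0.03. The ratios were thus not uniform over the synthetases.

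Among 19 measured regulators of the integrated stress response, 6 were called higher and 0 lower (all genes, 3.62% and 4.28%). Their median log2 ratio was 0.32. ATF3 (chr1:212565334-212620777), a stress-induced repressor and activator, had 117 counts in vector and 757 in circ, 6.04-fold (4.97 to 7.41) higher. DDIT3 had 284 and 912 counts, a ratio of 3.0 (2.62 to 3.44). PPP1R15A, whose product removes the phosphate from eIF2α and so ends the response, had 4406 and 10928 counts, a ratio of 2.32 (2.24 to 2.4). CEBPG and the translation inhibitor gene EIF4EBP1 were called higher at 1.55-fold and 1.57-fold, and VLDLR at 2.21-fold on 27 and 64 counts. VLDLR passed the minimum through circ alone. ATF4 mRNA had 4912 and 6560 counts, a ratio of 1.25 (1.2 to 1.29), under the fold for a call. TRIB3 and SESN2 each stood at 1.49-fold. Of the eIF2α kinases, EIF2AK1 and EIF2AK3 both had a log2 ratio of -0.22, EIF2AK4 -0.09 and EIF2AK2 0.32, so none was called. CHAC1, NUPR1 and JDP2 were under the minimum, with 7 and 6, 9 and 45, and 8 and 23 counts in vector and circ.

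**Figure D3:**
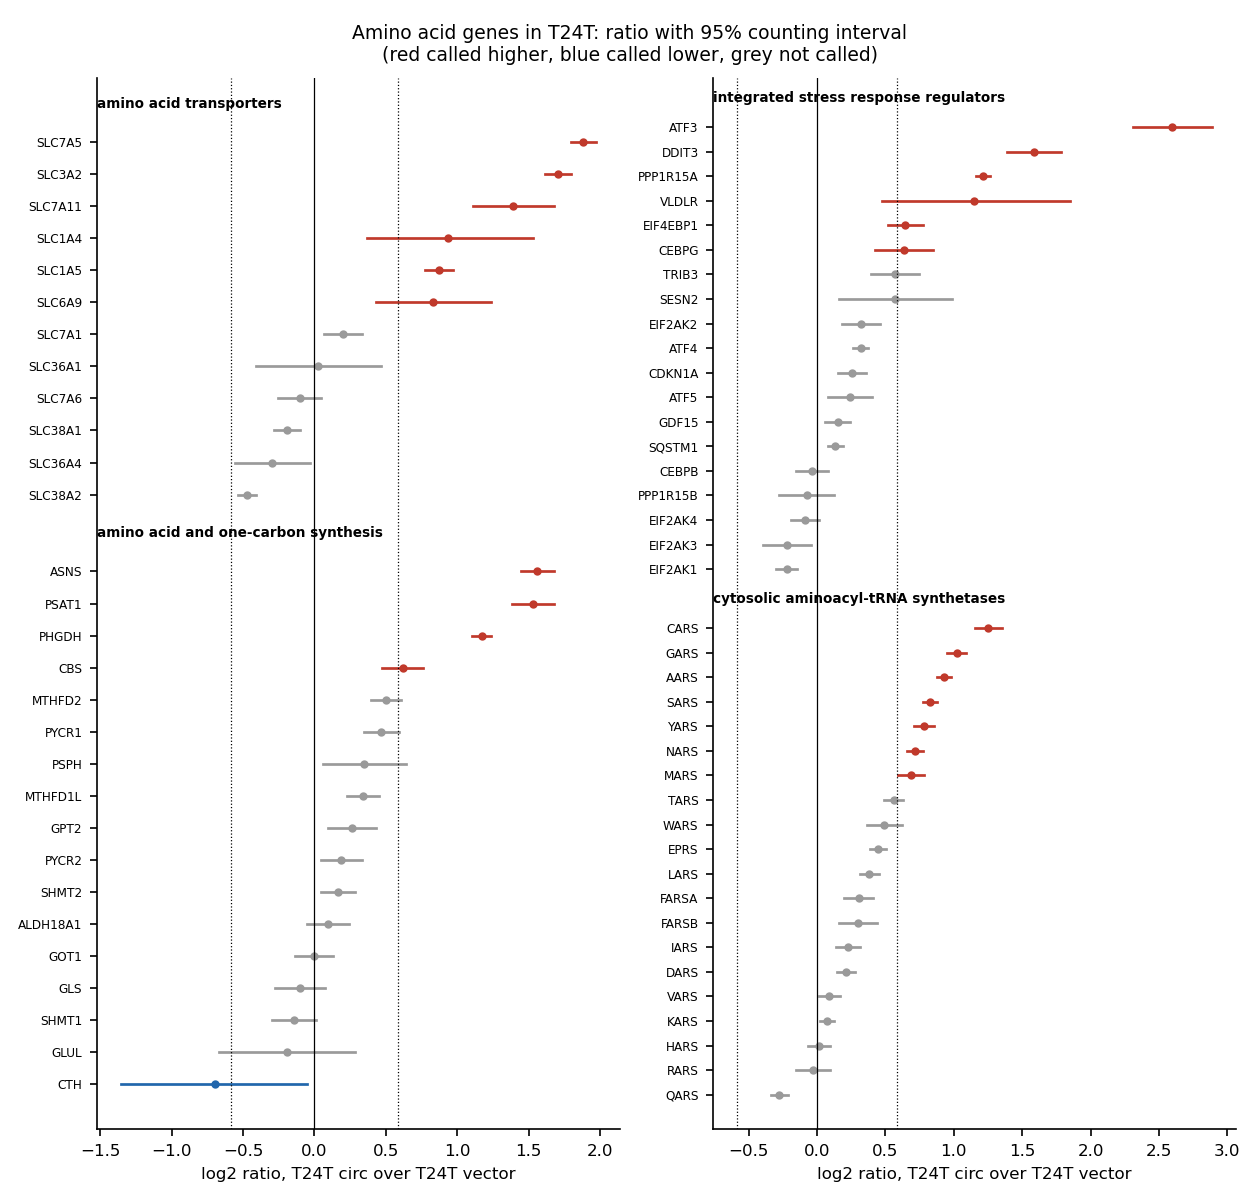
Log2 ratio of circ over vector in T24T (x axis, points) with its 95% counting interval (bars) for all measured amino acid transporters, synthesis genes, stress response regulators and cytosolic tRNA synthetases; dotted lines mark 1.5-fold. SLC7A5, ASNS, ATF3 and CARS lead their lists, and CTH is the only member called lower.

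Of 26 measured genes for endoplasmic reticulum chaperones and degradation, 3 were called higher and 0 lower (all genes, 3.62% and 4.28%). Their median log2 ratio was 0.27. HSPA5, which encodes the main chaperone BiP, had 11190 counts in vector and 24783 in circ, a ratio of 2.07 (2.02 to 2.12). HERPUD1, a membrane protein of the degradation machinery, had 328 and 882 counts, a ratio of 2.51 (2.21 to 2.86). DERL2, a channel subunit of the same machinery, was called at 1.56-fold. The other chaperones had smaller ratios: HSP90B1 had 34152 and 44226 counts (log2 ratio 0.27), CALR 43851 and 49357 (0.07) and PDIA4 17509 and 20366 (0.12). PDIA3, PDIA6 and EDEM1 were below 1 without a call, at -0.20, -0.19 and -0.25. The inducible cytosolic chaperones were higher as well: HSPA1B had 2884 and 9155 counts and HSPA1A 2197 and 6737, while the other 15 measured heat shock genes had no call and HSPD1 and HSPE1 of the mitochondrial matrix had log2 ratios of -0.37 and -0.30.

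The upstream regions of HSPA5 and HERPUD1 are shown because these genes led that list and held matches to different motifs of those searched. For HSPA5, on the minus strand at chr9:125241344-125241593 (RefSeq, GRCh38.p14), capitals mark the endoplasmic reticulum stress element, CCAAT and CCACG with any 9 bases between them, which 27 of all 35116 windows hold on either strand (0.0769%). For HERPUD1, on the plus strand at chr16:56931892-56932047, capitals mark a match to TGATGNAAN on the opposite strand.
HSPA5: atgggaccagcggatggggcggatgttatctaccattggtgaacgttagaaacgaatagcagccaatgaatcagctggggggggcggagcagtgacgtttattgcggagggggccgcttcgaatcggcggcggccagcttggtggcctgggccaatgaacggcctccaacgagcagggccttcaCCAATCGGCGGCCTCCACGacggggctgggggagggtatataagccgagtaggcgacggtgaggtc
HERPUD1: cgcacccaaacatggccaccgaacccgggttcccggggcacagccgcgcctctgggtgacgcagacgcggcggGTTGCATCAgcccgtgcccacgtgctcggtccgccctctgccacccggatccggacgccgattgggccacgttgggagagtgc
Of the 3 genes of this list called higher, all had a promoter entry. The endoplasmic reticulum stress element in the form searched was found in HSPA5 only. Other arrangements of its parts were not searched. The HERPUD1 sequence above holds attgggccacg, with CCACG close to the reverse complement of CCAAT. In all, 5 motifs were searched. The AP-1 element TGANTCA was found for HSPA5 (not capitalized above), DDIT3 and SLC3A2, and for 0 of the 3 AP-1 family genes called higher. The cyclic AMP response element TGACGTCA was found for PPP1R15A and DUSP1. Of all genes, 9.37% and 2.25% hold these 2 motifs at 1 or more starts.

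Several hypoxia-inducible genes were also higher in T24T circ. When oxygen is low, or when its sensors are blocked, the transcription factor HIF binds elements with the core ACGTG and raises genes for glycolysis, vessel growth, lipid storage and iron and pH handling. Of 26 measured members of a list of 30, 10 were called higher and 1 lower (all genes, 3.62% and 4.28%). The median log2 ratio was 0.39. ADM, which encodes the vasodilator adrenomedullin, had 41 counts in vector and 286 in circ, a ratio of 6.51 (4.68 to 9.27). It passed the minimum through circ alone. HILPDA, a lipid droplet protein that inhibits fat breakdown, had 106 and 398 counts, a ratio of 3.51 (2.82 to 4.39). ANGPTL4, a secreted lipase inhibitor, had 655 and 2001, and ANKRD37 had 88 and 267, with ratios of 2.85 and 2.83. The mTORC1 inhibitor gene DDIT4 (3884 and 8797 counts) and the secreted hormone gene STC2 (4204 and 9459), both of which also respond to ATF4, were 2.12-fold and 2.1-fold higher. NDRG1, PFKFB3, LOX and BHLHE40 were called at 1.94-fold, 1.67-fold, 1.65-fold and 1.58-fold. Other established targets stayed under the fold: VEGFA had 5826 and 7541 counts (log2 ratio 0.27), SLC2A1 2488 and 3039 (0.19) and BNIP3 1068 and 1484 (0.38). KLHL24 was called lower, with 275 and 187 counts, and CA9, the usual marker of hypoxic tumour cells, had 0 and 1 counts.

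The glycolysis enzymes, which HIF also raises, did not share this shift. Of 18 measured, 1 was called higher and 0 lower (all genes, 3.62% and 4.28%), with a median log2 ratio of -0.04. The exception was hexokinase 2, HK2, with 478 counts in vector and 1055 in circ, 2.06-fold (1.85 to 2.3) higher. LDHA had 25697 and 26565 counts (log2 ratio -0.05), PGK1 4664 and 5109 (0.03) and GAPDH 53377 and 52923 (-0.11).

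The sequences upstream of DDIT4 and of PPP1R3C are shown because both hold the letters ACGTGC, the hypoxia element searched for. PPP1R3C, a glycogen-targeting phosphatase subunit, was on none of the lists and is known as a hypoxia-inducible gene. It was the only gene searched from outside the lists. It had 16 counts in vector and 103 in circ, a ratio of 6.01 (3.53 to 10.9), and passed the minimum through circ alone. DDIT4 is on the plus strand at chr10:72273674-72273919 and PPP1R3C on the minus strand at chr10:91633072-91633321 (RefSeq, GRCh38.p14). Capitals mark ACGTGC or its reverse complement GCACGT.
DDIT4: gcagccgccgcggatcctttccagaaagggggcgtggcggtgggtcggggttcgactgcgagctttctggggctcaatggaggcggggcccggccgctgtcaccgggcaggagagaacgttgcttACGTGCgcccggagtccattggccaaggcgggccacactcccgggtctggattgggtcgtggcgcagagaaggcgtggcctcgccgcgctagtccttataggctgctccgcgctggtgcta
PPP1R3C: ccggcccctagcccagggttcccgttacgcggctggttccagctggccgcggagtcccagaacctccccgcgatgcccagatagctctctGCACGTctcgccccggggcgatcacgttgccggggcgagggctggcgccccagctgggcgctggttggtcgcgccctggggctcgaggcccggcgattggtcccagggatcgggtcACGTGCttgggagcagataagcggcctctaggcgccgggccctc
Of the 10 hypoxia genes called higher, 8 had a promoter entry, and 4 of these held ACGTGC on either strand: ANKRD37, DDIT4, LOX and BHLHE40. The others, with ADM, HILPDA and ANGPTL4 among them, had no match or no entry. The same letters were found in 6.89% of all windows and at 1 or more starts of 8.33% of all genes, and also for SLC7A5 and HERPUD1, which were not on the hypoxia list. The matched positions of different motifs did not overlap in the genes printed.

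Immediate early genes, which growth factor and stress kinases switch on within minutes without new protein synthesis, were called in part. EGR1 had 198 counts in vector and 1081 in circ, a ratio of 5.10 (4.38 to 5.96). The AP-1 subunit genes FOS (52 and 199 counts), FOSB (64 and 213) and JUN (3167 and 6224) were called higher at 3.57-fold, 3.11-fold and 1.84-fold, 3 of 11 measured members of that family. Of 17 measured EGR, KLF and NR4A genes and their like, 5 were called higher and 0 lower (all genes, 3.62% and 4.28%). They were EGR1, the MAPK phosphatase gene DUSP1 (821 and 2350 counts, 2.67-fold), KLF10 and the nuclear receptors NR4A1 and NR4A2. Other genes of the same class did not share this: IER3 had 9320 and 9645 counts and MCL1 6262 and 6130, with log2 ratios of -0.05 and -0.13. ERK feedback genes had 1 call among 12, DUSP6 at 1.52-fold, against 3.62% called higher over all genes. DUSP6 shares exon bases with another gene. Its call was lost at 2-fold, with totals without mitochondrial genes and with log2(RPKM + 1).

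**Figure D4:**
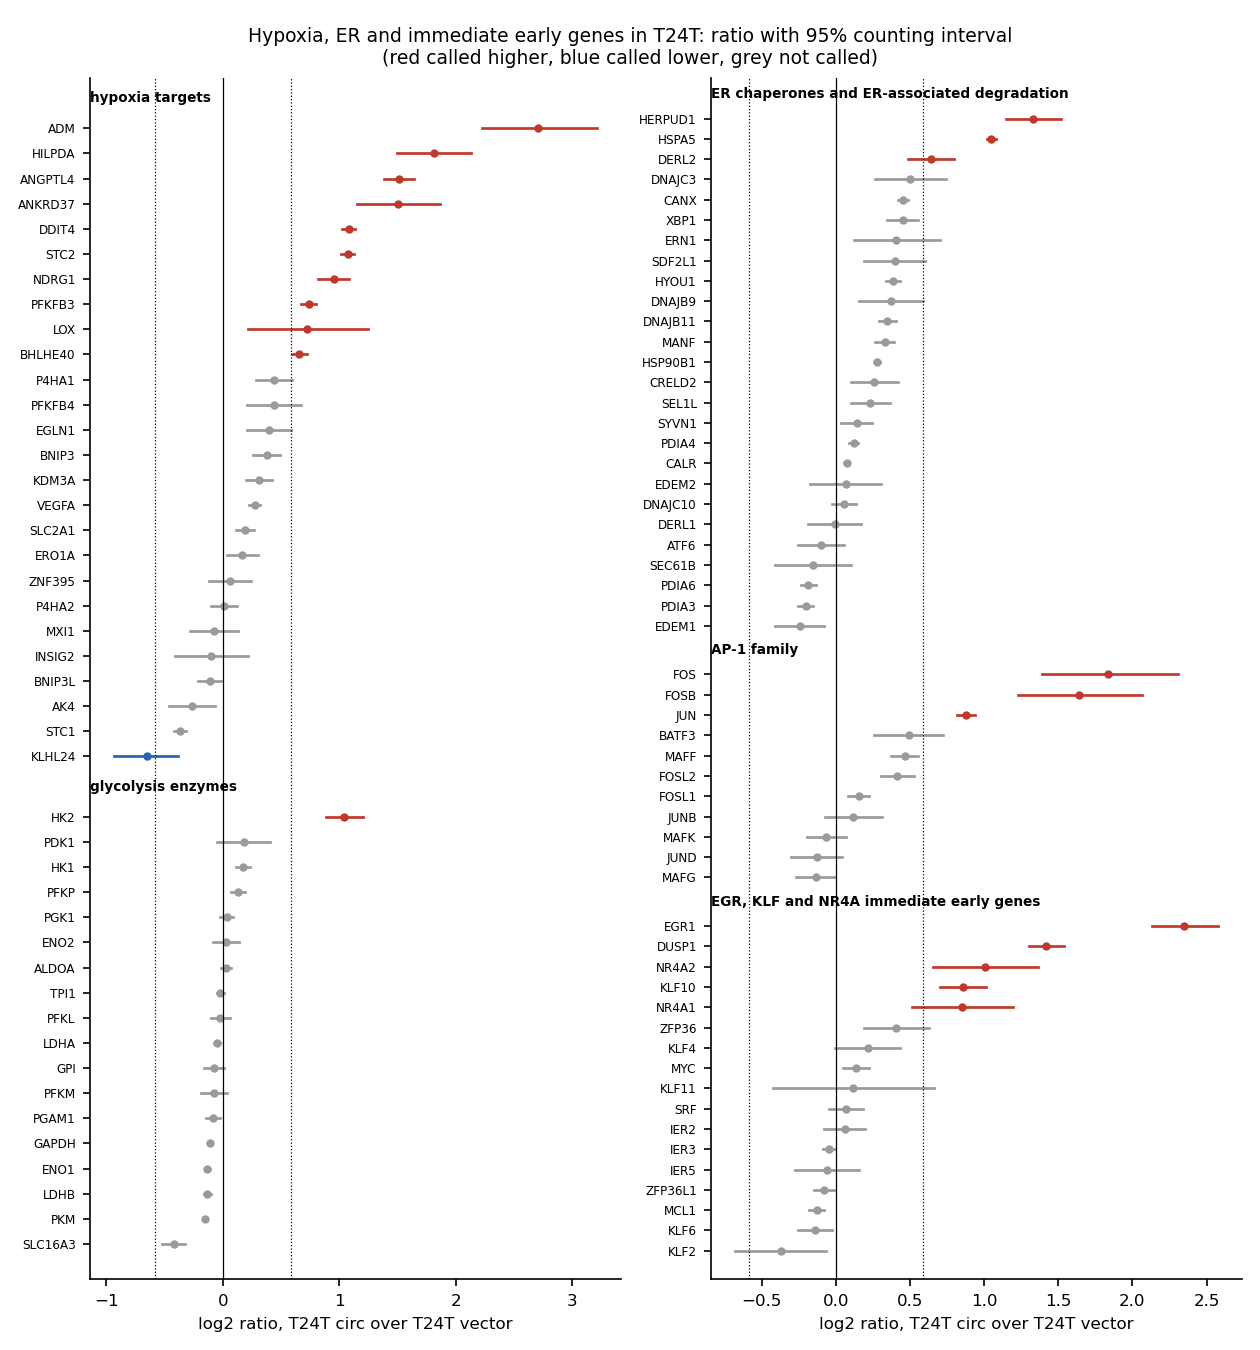
Log2 ratio of circ over vector in T24T (x axis, points) with its 95% counting interval (bars) for hypoxia targets, glycolysis enzymes, endoplasmic reticulum genes, AP-1 genes and other immediate early genes; dotted lines mark 1.5-fold. ADM, HERPUD1, FOS and EGR1 head their groups, while glycolysis enzymes other than HK2 cluster at 0.

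Lipid synthesis genes lay on the other side. Cholesterol and fatty acid genes are controlled by the SREBP transcription factors, which are cleaved and enter the nucleus when membrane sterol is low, and which INSIG1 holds back in the endoplasmic reticulum. Of 24 measured cholesterol genes, 10 were called lower and 0 higher (all genes, 4.28% and 3.62%). A ratio below 1 was seen for 23, and the median log2 ratio was -0.57. INSIG1 (chr7:155297776-155310235), itself an SREBP target, had 2365 counts in vector and 1192 in circ, 2.12-fold (1.98 to 2.28) lower. DHCR7, the enzyme of the last step, had 1365 and 731 counts, 2.0-fold (1.83 to 2.19) lower. Squalene epoxidase, SQLE, had 1614 and 1009 counts and a log2 ratio of -0.78. MSMO1, ACAT2, LSS, MVD, SC5D and NSDHL were called lower as well, between -0.92 and -0.64. The exception to the direction was PMVK, with 805 and 1094 counts and a log2 ratio of 0.34. TMEM97, a sterol-linked membrane protein gene outside the list, had 599 and 262 counts, 2.45-fold lower.

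Of 18 measured fatty acid synthesis genes, 5 were called lower and 0 higher (all genes, 4.28% and 3.62%). Their median log2 ratio was -0.46. FASN, the fatty acid synthase, had 7617 counts in vector and 4755 in circ, 1.72-fold (1.65 to 1.78) lower. The carboxylase ACACA (1484 and 986 counts), the acetate-using ACSS2 (1188 and 779), the desaturase SCD (4832 and 3259) and ACSL4 (1011 and 719) were lower by 1.61-fold, 1.63-fold, 1.59-fold and 1.51-fold. The other desaturases, FADS1 and FADS2, had log2 ratios of 0.07 and -0.01. SREBF1 mRNA had 641 and 492 counts and SREBF2 2132 and 2042, neither called.

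**Figure D5:**
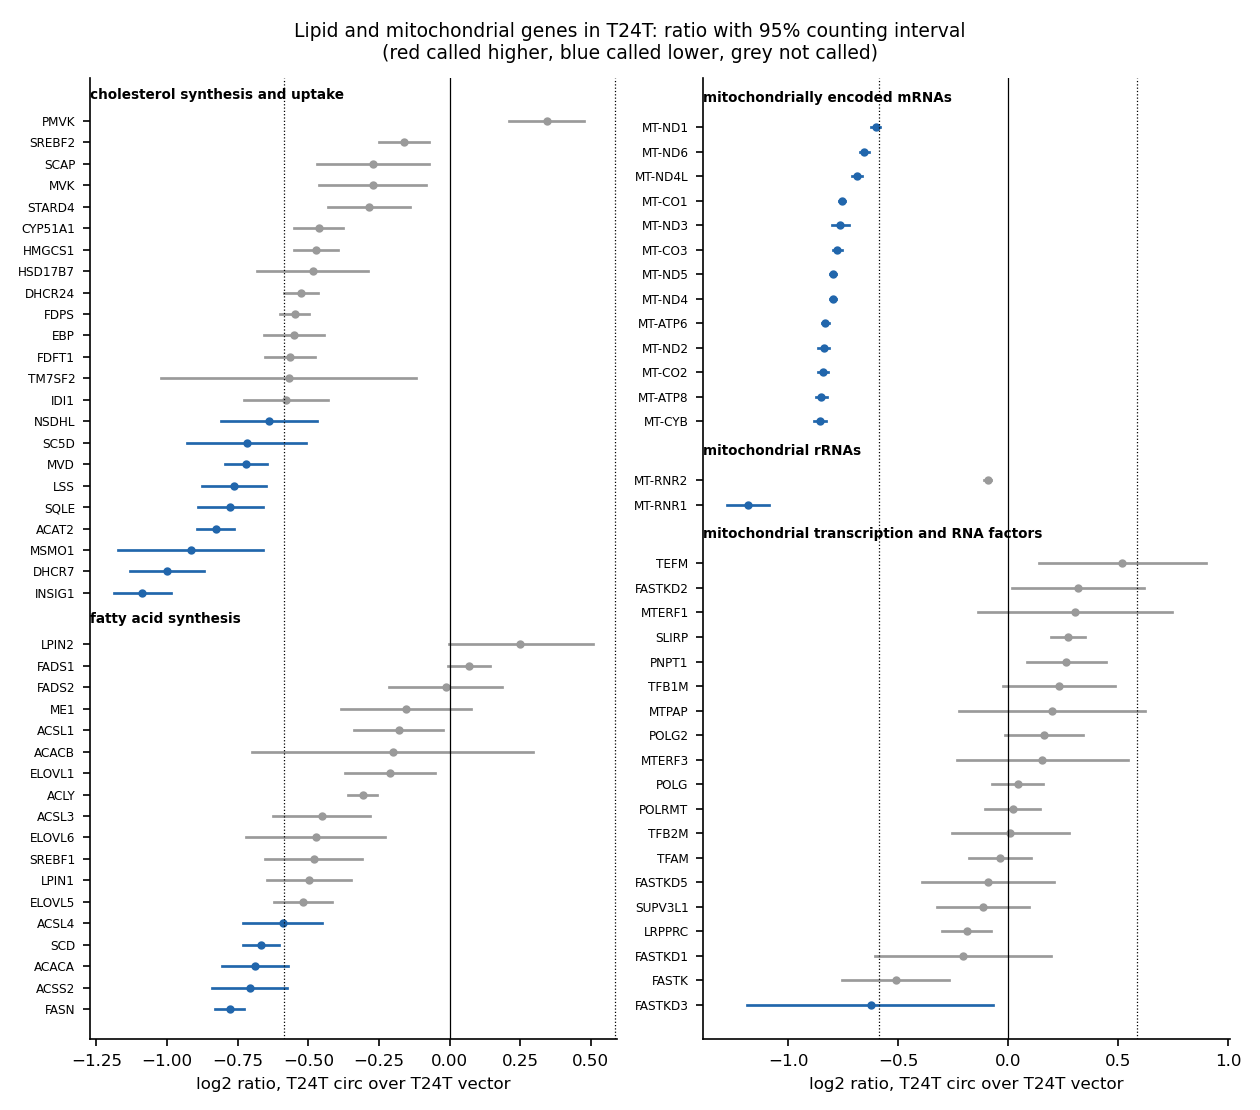
Log2 ratio of circ over vector in T24T (x axis, points) with its 95% counting interval (bars) for cholesterol, fatty acid and mitochondrially encoded genes and for nuclear genes of mitochondrial transcription and RNA handling; dotted lines mark 1.5-fold. The 13 mitochondrial mRNAs lie together between -0.85 and -0.60, while MT-RNR2 is near 0 and MT-RNR1 lies below them.

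Transcripts of the mitochondrial genome were lower in circ. It is copied from promoters in the control region as long RNAs that are cut at the tRNAs, and the rRNA genes MT-RNR1 and MT-RNR2 follow closely after the heavy-strand start. In vector 5.05% of the counts were mitochondrial, and in circ 3.08%. All 13 mRNAs were called lower (all genes, 4.28%), with log2 ratios from -0.85 to -0.60 and a median of -0.79. MT-ND4 had 127422 counts in vector and 78524 in circ (5483 and 3156 as RPKM, which scales counts by gene length and library total), and MT-CO1 had 116284 and 73745. MT-ND1, the first mRNA after the rRNAs, had 40745 and 28733 counts, 1.52-fold (1.5 to 1.54) lower. Along the heavy strand the ratios were uneven at the start: MT-TF had 103 and 50 counts (log2 ratio -1.14), MT-RNR1 2739 and 1294 (-1.18), MT-TV 252 and 375 (0.47), MT-RNR2 58043 and 58245 (-0.09) and MT-TL1 877 and 687 (-0.45). The 12S and 16S rRNAs, which lie on either side of MT-TV, thus differed in ratio beyond their counting intervals. Of the 22 mitochondrial tRNAs, 16 were called lower and 0 higher. The authors' use of strand is not given in the sources used here, so reads of MT-ND6 and of the opposite strand cannot be told apart.

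Nuclear genes for the same organelle did not share this. None of 76 mitochondrial ribosomal protein genes was called (all genes, 3.62% higher and 4.28% lower), and their median log2 ratio was 0.02. Of 51 nuclear-encoded respiratory chain genes, 1 was called, NDUFC2, with 416 counts in vector and 254 in circ. Among 19 mitochondrial transcription and RNA factors the 1 call was FASTKD3, lower on 69 and 48 counts and past the minimum through vector alone. The transcription factor TFAM had a log2 ratio of -0.04. MTND1P23, a nuclear copy of MT-ND1 sequence, had 479 and 218 counts, and its reads and those of the mitochondrial gene may not be separable.

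Of 20 abundant structured RNAs listed, 4 passed the minimum and 3 of these were called lower (all genes, 4.28%). RN7SL1 and RN7SL2, near-identical RNAs of the signal recognition particle, had 778 and 811 counts in vector and 229 and 290 in circ, 3.64-fold (3.14 to 4.23) and 2.99-fold (2.62 to 3.44) lower. RN7SK, which holds the elongation kinase P-TEFb inactive, had 916 and 297 counts, 3.3-fold (2.89 to 3.78) lower. RPPH1, the RNA of RNase P, had 300 and 353 counts and no call. Length moved with these calls: of the 294 genes over 200 and up to 500 bases, which include RN7SL1, RN7SL2 and RN7SK, 12.2% were called lower and 6.46% higher, against 1.24% and 2.72% of the 2499 genes over 8000 bases. Its part in the result was not tested.

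Secreted factors and matrix genes included several of the lower calls. T24T vector cells expressed neutrophil-directed cytokines at high level. Of 18 measured cytokine and chemokine genes, 6 were called lower and 0 higher (all genes, 4.28% and 3.62%). CSF3, which encodes the granulocyte growth factor G-CSF, had 3619 counts in vector and 1776 in circ, 2.18-fold (2.06 to 2.31) lower. CXCL1, a neutrophil attractant, had 28936 and 19949 counts, and CCL20 526 and 282, with log2 ratios of -0.64 and -1.0. IL1B (81 and 42 counts), CXCL6 (110 and 68) and IL11 (77 and 48) were called lower as well. IL1B and IL11 passed the minimum through vector alone. CXCL8 (11405 and 10850 counts), IL6 (1821 and 2220), CSF2 (1366 and 1351) and LIF (4299 and 4875) had no call, so the list was mixed. Among 21 NF-kB subunits and feedback inhibitors, TNFAIP3 was the 1 call, and NFKBIA had 5558 and 7136 counts (log2 ratio 0.26).

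FN1, the matrix protein fibronectin, had 22587 counts in vector and 12465 in circ, 1.94-fold (1.9 to 1.98) lower. The integrin genes ITGA11 (599 and 274 counts) and ITGB3 (1825 and 1168) were lower by 2.34-fold and 1.67-fold, while COL5A2, on 73 and 139 counts, was called higher. Of 31 measured matrix and integrin genes on the list (ITGA11 is not on it), FN1, COL6A2 and ITGB3 were lower and COL5A2 higher. Among all genes 4.28% were called lower and 3.62% higher. The median log2 ratio of the matrix list was -0.08, and at 2-fold 0 of its calls remained. The plasminogen activators PLAU (10779 and 7441 counts) and PLAT (1215 and 811) were lower by 1.55-fold and 1.6-fold. They were the 2 calls among 16 measured plasminogen activators, metalloproteinases and inhibitors, whose median log2 ratio was -0.14. Over all genes 4.28% were called lower. At 2-fold 0 calls of this list remained, and PLAU shares exon bases with another gene. Of 6 measured mesenchymal markers, FN1 and SNAI2 (132 and 91 counts) were called lower and ZEB2 (103 and 183) higher, and VIM had 12309 and 10505 counts without a call. None of the 9 measured epithelial markers was called.

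Proliferation genes had few calls. None of 42 replication genes was called, with a median log2 ratio of 0.01. Mitotic genes had a median of -0.24 over 50 measured, with 46 below 1, but only CCNF, FOXM1 and CDCA3 were called, at log2 ratios of -0.68, -0.63 and -0.59. All 3 share exon bases with another gene. Over all genes 4.28% were called lower, so 3 of 50 is near that share. TOP2A had 17083 and 13904 counts (-0.40) and MKI67, the usual marker of cycling cells, 18559 and 20267 (0.03). The shift in mitotic genes was thus small against the 1.5-fold needed for a call.

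Canonical histone mRNAs, most of which lack a poly(A) tail, were seen at low counts. Of 41 listed genes, 13 passed the minimum and 10 of these were called higher (all genes, 3.62%). HIST1H2BG had 22 counts in vector and 114 in circ, HIST1H2AC 330 and 796, and HIST1H1C, the most abundant, 3093 and 4181 with a log2 ratio of 0.34 and no call. Several passed the minimum through circ alone: with 50 counts required in both libraries 5 were called, at 2-fold 5, with a minimum of 200 counts 4 and with a minimum of 10 counts 17. The sum over all 41 was 5138 counts in vector and 7933 in circ, or 0.0305% and 0.0439% of the libraries. Histone genes are near-identical copies, so counts of single members are uncertain.

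Genes induced by interferon and by foreign RNA were mostly without a call. Of 34 listed, 15 were under the minimum, including IFNB1 and CXCL10 at 0 in both libraries. Of 19 measured, 4 were called higher and 0 lower (all genes, 3.62% and 4.28%). They were IFIT2 (27 and 125 counts), IFIT1 (26 and 63), IFIT3 (64 and 103) and ISG15 (230 and 370). IFIT1 and IFIT2 passed the minimum through circ alone, and the number of higher calls was 2 with 50 counts required in both libraries, 2 with totals without mitochondrial genes and 1 with log2(RPKM + 1). The RNA sensors DDX58 and IFIH1 had log2 ratios of -0.27 and -0.04.

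Several other lists are given in brief. Over all genes, 3.62% were called higher and 4.28% lower. The cold-inducible and double-stranded RNA-binding genes had RBM3 and ZFR (1502 and 3103 counts, 1.93-fold) among 21. Exon junction and nonsense-mediated decay genes had MAGOHB, UPF2 and UPF3B called higher among 16, at 1.72-fold, 1.59-fold and 1.55-fold. Of the 16, 14 had a ratio above 1, and the median log2 ratio was 0.28. At 2-fold 0 of these calls remained. YAP target genes had 4 of 21 higher, led by ANKRD1 with 78 and 170 counts, while CTGF and CYR61 had log2 ratios of 0.36 and 0.18. Of 6 measured metallothionein and zinc-response genes, MT1X and MT1E were lower, and MT2A, with 211756 and 156975 counts, had a log2 ratio of -0.53. Clustered protocadherins gave 22 calls lower of 22 measured, but members such as PCDHGC4 (1381 and 800 counts) and PCDHGB3 (1366 and 792) share constant exons and had nearly the same counts, so these calls stand for 1 set of reads. Cytosolic ribosomal proteins had 1 call of 79 (RPS28, lower), splicing SR proteins and CLK kinases 0 of 29, and NRF2 targets only SLC7A11 of 21.

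The EJ libraries give the same contrast in another line, with 1 library a side, and the difference between lines was not tested. In EJ vector, SLC7A5 had 9473 counts of 15639289 and in EJ circ 10666 of 14703455, a log2 ratio of 0.26, so T24T circ with its 5310 counts remained below the EJ libraries. ASNS had 1400 and 1431 counts in EJ, and PHGDH 4605 and 4671, with log2 ratios of 0.12 and 0.11. EGR1 had 895 and 820 counts there. Other genes were higher in EJ as well: ATF3 had 423 and 1150 counts (log2 ratio 1.53), PPP1R15A 2888 and 6947 (1.36), DDIT3 381 and 644 (0.85), FOS 19 and 90 (2.33) and FOSB 13 and 197 (4.01). RBM3 had 4361 and 16010 counts in EJ and TNFAIP3 122 and 339, with log2 ratios of 1.97 and 1.56. Over the 26 hypoxia genes measured in T24T the EJ median was -0.21, and over the 12 transporters -0.13. For the cholesterol genes it was -0.56 and for the mitochondrial mRNAs -0.46. The structured RNAs had few counts in EJ vector and circ: RN7SL1 76 and 82, RN7SL2 136 and 132, and RN7SK 82 and 54. Their EJ log2 ratios were 0.20, 0.05 and -0.51. T24T vector, with 778, 811 and 916 counts of them, thus stood highest of the 4 libraries. Whether their lower ratios in T24T reflect the vector or the circ library was not tested. CSF3 had 0 and 1 counts in EJ, so its ratio there has no value. Because the genes named were chosen by their T24T ratios, a smaller ratio in EJ is no sign of a difference by itself.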

How the data were processed

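RNA sequencing read counts from T24T cells with circ and with vector, 1 library each, were analysed, with the EJ libraries for values set side by side. Counts were deposited for 56303 genes and RPKM, made by the authors, for 29817 of them; every RPKM equalled count over length and total within a relative tolerance of 1e-06. The submitters' processing notes name Trimmomatic, HISAT2 and hg38, with no version of either tool. The program that counted reads, annotation, strand setting and any pooling are not given in the sources used here. Columns were matched to samples by their descriptions.

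The members and the 46 gene lists and 7 marker lists were chosen with earlier results of these data known. Counts were scaled by library totals, genes with 50 or more counts in the higher library kept, and ratios given with exact 95% intervals (scipy 1.17.1). No test was possible with 1 library a side. The ratio and call code was checked on simulated data. Fixed for naming were RBM3, TNFAIP3, WTAP, METTL3 and METTL14, the 15 genes per direction whose interval bound nearest to 1 is farthest from it (clone names left out), up to 5 called members per list, and other list members as examples. Genes named outside this rule, such as those of the closing observations, were chosen after their values were seen. Gene types came from GENCODE release 29 for 11649 genes, and promoter windows from RefSeq. Alternatives were TMM and RLE factors (edgeR 4.0.16), totals without mitochondrial genes, other count minimums and call rules, thinning, and log2(RPKM + 1). A few list members count in the list totals but are not reported here by name.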

Additional observations from a re-analysis of the deposited data

Results flagged for a closer look

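DDIT4, whose product inhibits mTORC1, went opposite ways in the lines. Its log2 ratio of circ over vector was 1.08 in T24T, with 3884 counts in vector and 8797 in circ, and -0.863 in EJ, with 3588 and 1855 counts. With 1 library per group the difference between the lines was not tested. DDIT4 shares exon bases with another gene of the comparison.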

How the results depend on the processing

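The number of calls followed the rule used. Against 482 higher and 571 lower, TMM factors gave 502 and 540, RLE factors 578 and 477, and totals without mitochondrial genes 427 and 656, so the higher share of calls was 45.8%, 48.2%, 54.8% and 39.4% in turn, with the median of all genes shifted by at most 0.04. A minimum of 10 counts gave 773 higher and 750 lower, with more higher than lower calls as under RLE, a minimum of 200 counts 197 and 261, 2-fold 106 and 72, and log2(RPKM + 1) differences 192 and 259, the last because the pseudocount of 1 shrinks low genes. Chosen after seeing the data, 50 counts in both libraries gave 332 and 437, and leaving out genes that share exon bases, with 7560 genes remaining, 298 and 312. That last setting left 4 of the 10 hypoxia calls, 3 of the 6 transporter calls, 3 of the 7 synthetase calls, 8 of the 13 mitochondrial mRNA calls and 0 of the 3 mitotic calls, with fewer members measured. At 2-fold, 6 hypoxia, 3 transporter, 2 synthetase and 1 cholesterol calls remained in number. The mitochondrial mRNA, fatty acid and mitotic lists each kept 0 calls at 2-fold. Of the 136 named genes, 28 moved beyond their counting interval under log2(RPKM + 1), 7 under RLE and 5 with totals without mitochondrial genes; no called one of them changed direction under a setting run. Cytokine calls numbered 2 at 2-fold and 3 at 200 counts. No paired analysis was possible because the comparison within T24T holds 1 library a side. Depth limits genes with few counts most, such as IFIT2, whose 27 and 125 counts gave an interval of 2.83 to 6.82.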

Other observations

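Genes outside the lists, chosen after their values were seen, included further ones of amino acid and lipid metabolism. PCK2, a mitochondrial enzyme that makes phosphoenolpyruvate, had 226 counts in T24T vector and 555 in circ, 2.29-fold (1.96 to 2.69) higher. BCAT1, which transfers the amino group of branched-chain amino acids, had 21 and 69 counts and passed the minimum through circ alone. PLIN2, a coat protein of lipid droplets, had 155 and 399 counts, a ratio of 2.4 (1.99 to 2.91). On the lower side, UGCG, which makes glucosylceramide, had 1514 and 803 counts, and PREX1, an activator of RAC, 772 and 374, with log2 ratios of -1.01 and -1.14.

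Noncoding genes were called more often than protein-coding ones. Of 91 lincRNA genes, 12.1% were called higher and 4.4% lower, and of 255 antisense genes 9.02% and 5.1%, against 2.99% and 3.63% of 10752 protein-coding genes. Antisense counts cannot be told apart from those of the partner gene without strand. Noncoding genes also tend to have low counts, where calls were more frequent, and the part of depth was not tested. H19, an imprinted long noncoding RNA, had 21 and 73 counts and passed the minimum through circ alone.

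The copies of the U3 small nucleolar RNA did not go the same way. SNORD3A had 14 counts in vector and 66 in circ, while SNORD3C had 214 and 142, SNORD3D 64 and 41, and SNORD3B-2 69 and 33. SNORD3A passed the minimum through circ alone, and SNORD3D and SNORD3B-2 through vector alone, which favours a ratio toward that library. These copies are near-identical, so how reads were shared among them is uncertain.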
